A study of Homo sapiens with 6 samples.

Results

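The genes described here encode the proteins of the mitochondrial ribosome. Members were the genes whose symbol begins with MRPL or MRPS followed by a digit, reached from the transcript accession of each probe on the arrays, with pseudogenes left out. By this rule 77 protein-coding genes had a probe, of 21743 genes with a probe in all. The symbols of 4 further genes match the pattern but name antisense or divergent long non-coding RNAs, and these were kept apart. MDA-MB-231, a human triple-negative breast cancer cell line, was transfected with a precursor of hsa-miR-205-5p, with one of hsa-miR-214-3p, or with a scrambled one as control. Each was used at 30 nM and RNA was collected after 72 h. There were 2 arrays in each of the 3 groups, and nothing in the labels says whether the replicates came from separate cultures, so the p-values measure the spread between these arrays, which may be technical. The cell line label was checked on the same arrays. All 8 genes chosen as MDA-MB-231 markers, among them VIM, CD44 and AXL, were well above background on all 6 arrays. Of 8 genes chosen as luminal breast markers, 4 (ESR1, PGR, FOXA1 and KRT20) were well above background on none, and the other 4 (GATA3, ERBB3, EPCAM and TFF1) on all 6. Of 9 genes chosen as blood, endothelial and fibroblast markers, 6 were well above background on none. The rest were CD14 on all 6 arrays, PECAM1 on 3 and PTPRC on 2.

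Mitochondria translate a handful of membrane proteins of the respiratory chain and ATP synthase from their own genome. They do so on a ribosome whose RNA is made inside the organelle and whose proteins are all encoded in the nucleus, made in the cytosol and imported. Many of these proteins descend from bacterial ribosomal proteins, while others were gained in the mitochondrial lineage. The large subunit holds the site where peptide bonds form, and the small subunit binds the messenger RNA and decodes it. Inherited defects in several of these proteins impair oxidative phosphorylation.

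A mature miRNA pairs with messenger RNAs mainly through its seed, bases 2 to 8, and lowers their stability or translation. The mature sequences of both miRNAs are shown because they are what the compared groups differ by. They come from RefSeq (GRCh38.p14), with the seed in capitals.
hsa-miR-205-5p, chr1:209432166-209432187, plus strand: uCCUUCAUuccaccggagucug
hsa-miR-214-3p, chr1:172138816-172138837, minus strand: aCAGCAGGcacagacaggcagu
Both are 22 bases long. Their seeds are different, with the same base at 1 of the 7 positions.

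Signals are given as normalized log2 signal, which is log2 of the processed signal of a probe minus the 75th percentile of its array. Between 20813 spots (35.4%) and 24759 spots (42.2%) of an array were well above background, out of 58717 that were not controls, and 0 were saturated. Only probes that stood well above background on each array of 1 group or more were tested. This left 76 of the 77 members among 11974 genes, and MRPL1, a large subunit protein with a bacterial homologue, was the member not tested. All 76 tested members were well above background on every one of the 6 arrays, so none of them passed the filter through a single group. The number of arrays limits the precision. For 6 members the probe was printed 10 times on each array, and the SD of log2 signal over those spots ran from 0.03 to 0.09 for MRPL32 and from 0.06 to 0.27 for MRPL22, depending on the array.

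The control arrays stood further apart than the arrays of either precursor. Over the 76 members the median absolute difference between replicates was 0.28 in the scrambled control, 0.11 with hsa-miR-205-5p and 0.07 with hsa-miR-214-3p. Over all 11974 genes these values were 0.34, 0.17 and 0.11. For the members called against the control, the values on both control arrays are therefore given, and the counts are repeated with either control array left out.

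**Figure D1:**
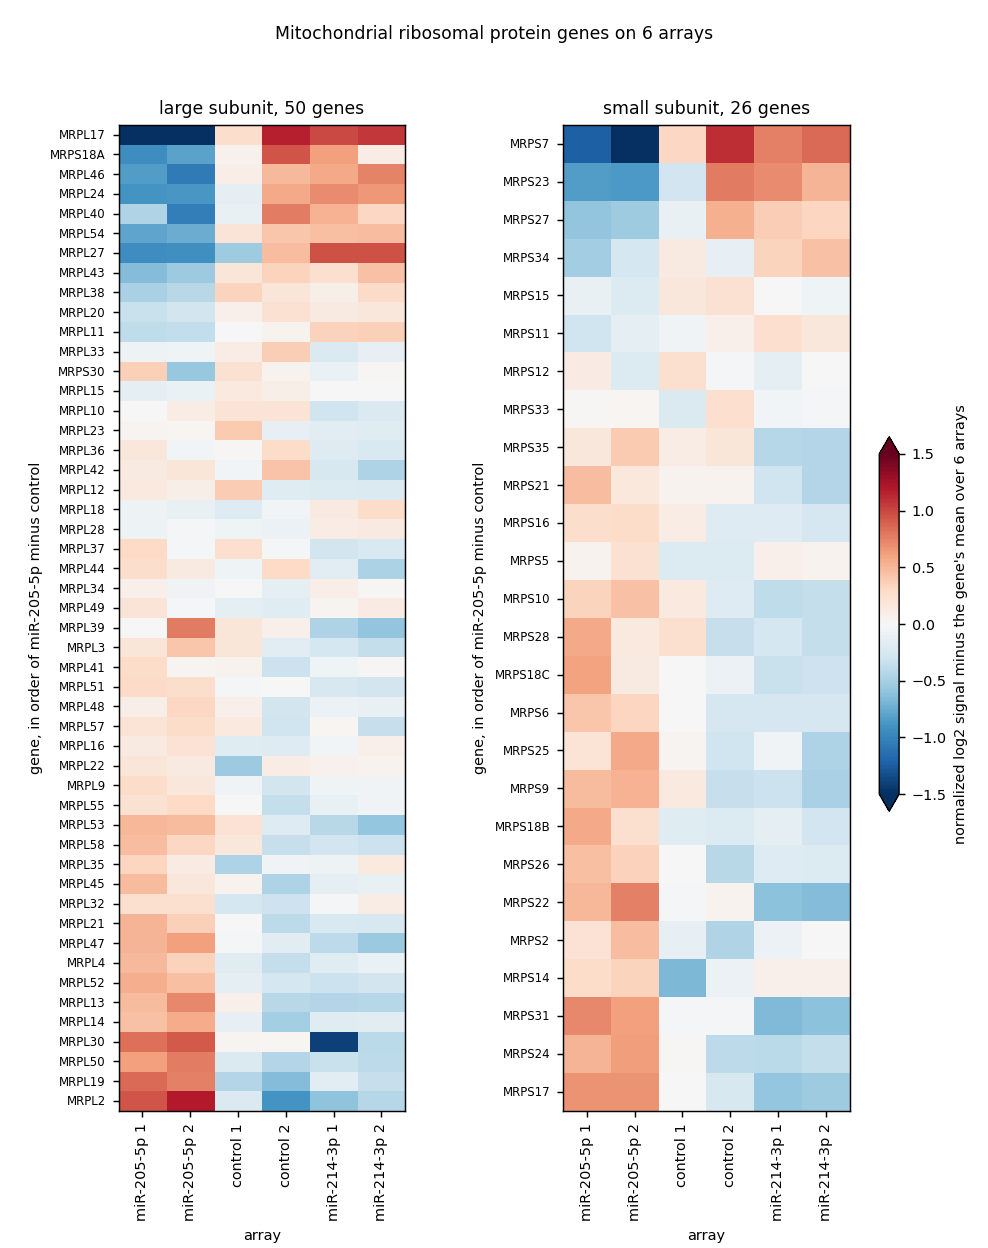
Normalized log2 signal of each tested member on each of the 6 arrays, minus the mean of that member over the 6 arrays, for 50 large subunit genes (left) and 26 small subunit genes (right). Columns are arrays and rows are genes, ordered by the log2 fold change of hsa-miR-205-5p over control. A block of genes at the top, led by MRPL17 and MRPS7, is low on both hsa-miR-205-5p arrays, and scrambled control replicate 1 is paler there than replicate 2.

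The first comparison asks how these genes differ between cells given the hsa-miR-205-5p precursor and cells given the scrambled control. Against the control, 6 of the 76 members were lower and 3 were higher on the hsa-miR-205-5p arrays by the calling rule (limma, adjusted p below 0.05, and 2-fold or more). Among all genes tested, 7.98% were called lower and 4.78% higher by the same rule, so the shares of members, 7.89% and 3.95%, were near the background. The genes that fell were MRPL17, MRPS7, MRPS18A, MRPL46, MRPL24 and MRPL54, and those that rose were MRPL2, MRPL19 and MRPL50. They include genes of both subunits and of both evolutionary classes. With no limit on the fold change, 8 members were lower and 10 higher, against 11.3% and 9.80% of all genes. The middle 50% of the members lay between −0.23 and 0.54 on the log2 scale, and the full range ran from −2.46 to 1.62. Their median was 0.29 and that of all genes 0.08, and 51 of the 76 members (67.1%) lay above 0, beside 54.7% of all genes. The sign of the members' median depends on the scaling, since it was −0.10 when arrays were scaled to their median signal and −0.06 after normexp background correction.

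Most of the members called lower belong to the large subunit. MRPL17 is the counterpart of a bacterial protein that lies near the exit of the peptide tunnel. Its normalized log2 signal was 2.78 and 2.85 on the hsa-miR-205-5p arrays, 4.82 and 5.72 in the control and 5.55 and 5.62 with hsa-miR-214-3p. Both hsa-miR-205-5p arrays lay below all 4 others. With SE for the standard error, the log2 fold change against the control was −2.46 (limma, SE 0.31, adjusted p 0.0107). MRPL24 is another large subunit protein with a bacterial homologue. It stood at 4.40 and 4.43 with hsa-miR-205-5p and at 5.16 and 5.87 in the control, with hsa-miR-214-3p at 6.01 and 5.95. The log2 fold change was −1.10 (limma, SE 0.26, adjusted p 0.0414). The groups did not overlap, which with 2 arrays each says little. It held for 59 of the 76 members, 20 in the lower and 39 in the higher direction. Of all genes it held for 28.6% in the lower and 36.6% in the higher direction.

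Among large subunit proteins found only in mitochondrial ribosomes, MRPL46 was at 3.00 and 2.78 with hsa-miR-205-5p and at 3.94 and 4.32 in the control. Its log2 fold change was −1.24 (limma, SE 0.20, adjusted p 0.0178). MRPL54 was at 3.86 and 3.90 against 4.84 and 5.07, with a log2 fold change of −1.07 (limma, SE 0.16, adjusted p 0.0145). In neither gene did the groups overlap, as in most members. MRPS18A carries a small subunit name but is a protein of the large subunit. It was at 2.26 and 2.39 with hsa-miR-205-5p and at 3.26 and 4.14 in the control, a log2 fold change of −1.37 (limma, SE 0.34, adjusted p 0.0462). MRPL43 and MRPL38, also of this class, passed the test but not the fold limit. Their log2 fold changes were −0.85 (limma, adjusted p 0.0261) and −0.71 (adjusted p 0.0396).

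In the small subunit, MRPS7 was the member called lower. It is the homologue of a bacterial protein that organizes the head of the subunit, where messenger RNA and transfer RNA pass. Its normalized log2 signal was −0.33 and −0.90 with hsa-miR-205-5p, 1.21 and 2.01 in the control and 1.66 and 1.75 with hsa-miR-214-3p. The log2 fold change against the control was −2.22 (limma, SE 0.33, adjusted p 0.0144), and both hsa-miR-205-5p arrays lay below the other 4. After normexp background correction MRPS7 was no longer called, either against the control or between the precursors. MRPS23, specific to mitochondria, differed by −1.09 with a wider gap between the control arrays, at 2.53 and 3.60, and did not pass the test (limma, adjusted p 0.0890).

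All 3 members called higher were large subunit genes. MRPL2 is the homologue of a bacterial protein next to the site of peptide bond formation. It was at 4.82 and 5.08 with hsa-miR-205-5p, at 3.66 and 2.99 in the control and at 3.28 and 3.45 with hsa-miR-214-3p. The log2 fold change against the control was 1.62 (limma, SE 0.27, adjusted p 0.0175). MRPL19, whose bacterial homologue lies at the face between the subunits, was at 3.97 and 3.87 against 2.67 and 2.46. Its log2 fold change was 1.35 (limma, SE 0.17, adjusted p 0.0107). MRPL50, specific to mitochondria, was at 5.97 and 6.11 against 5.14 and 4.91, a log2 fold change of 1.02 (limma, SE 0.17, adjusted p 0.0178). In each of these genes both hsa-miR-205-5p arrays lay above the other 4. Of the 7 members that were higher at under 2-fold, those of lowest adjusted p were MRPS17, MRPS31, MRPL52, MRPL14 and MRPL4. Their log2 fold changes ran from 0.69 to 0.81 and their adjusted p from 0.0290 to 0.0403 (limma). A second, dimmer probe of MRPL52 stood at −0.13 (limma, adjusted p 0.854).

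Of the members followed in every comparison, MRPL12 had a log2 fold change of 0.02 (limma, adjusted p 0.957). It forms the flexible stalk of the large subunit that recruits translation factors. MRPL3 and MRPL44, genes of inherited cardiomyopathy with deficient oxidative phosphorylation, had values of 0.28 and 0.08. In the small subunit MRPS16 had 0.31, MRPS22 0.61, MRPS2 0.62 and MRPS34 −0.40. None of these 7 passed the test, with adjusted p from 0.0579 to 0.957.

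The calls against the control rest on few arrays, and those of MRPS18A, MRPL24 and MRPL50 were the ones most often lost under other settings. With quantile normalization 4 members were called lower and 2 higher, without these 3 genes. The calls of MRPS18A and MRPL24 were also lost with the replicate block, in the unadjusted t-test, in the fit on the 4 arrays compared and without control replicate 2. In all 6 members called lower, control replicate 1 lay below control replicate 2, by a median of −0.76 (replicate 1 minus replicate 2). Without control replicate 1, 10 members were called lower and 5 higher. Without control replicate 2, 3 were lower and 2 higher. Without hsa-miR-205-5p replicate 1 the counts were 2 and 0, without hsa-miR-205-5p replicate 2 they were 0 and 0, and without either hsa-miR-214-3p array they were 2 and 1. The shares of all genes moved alongside, from 7.98% and 4.78% to 11.7% and 8.89% without control replicate 1 and to 6.63% and 4.39% without control replicate 2. They were 4.71% and 1.72% without hsa-miR-205-5p replicate 1, 0% and 0% without its replicate 2, and 3.38% and 1.77% without either hsa-miR-214-3p array. When only the 4 arrays compared were fitted, limma called 2 members lower and 1 higher, and again 3.38% and 1.77% of all genes.

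**Figure D2:**
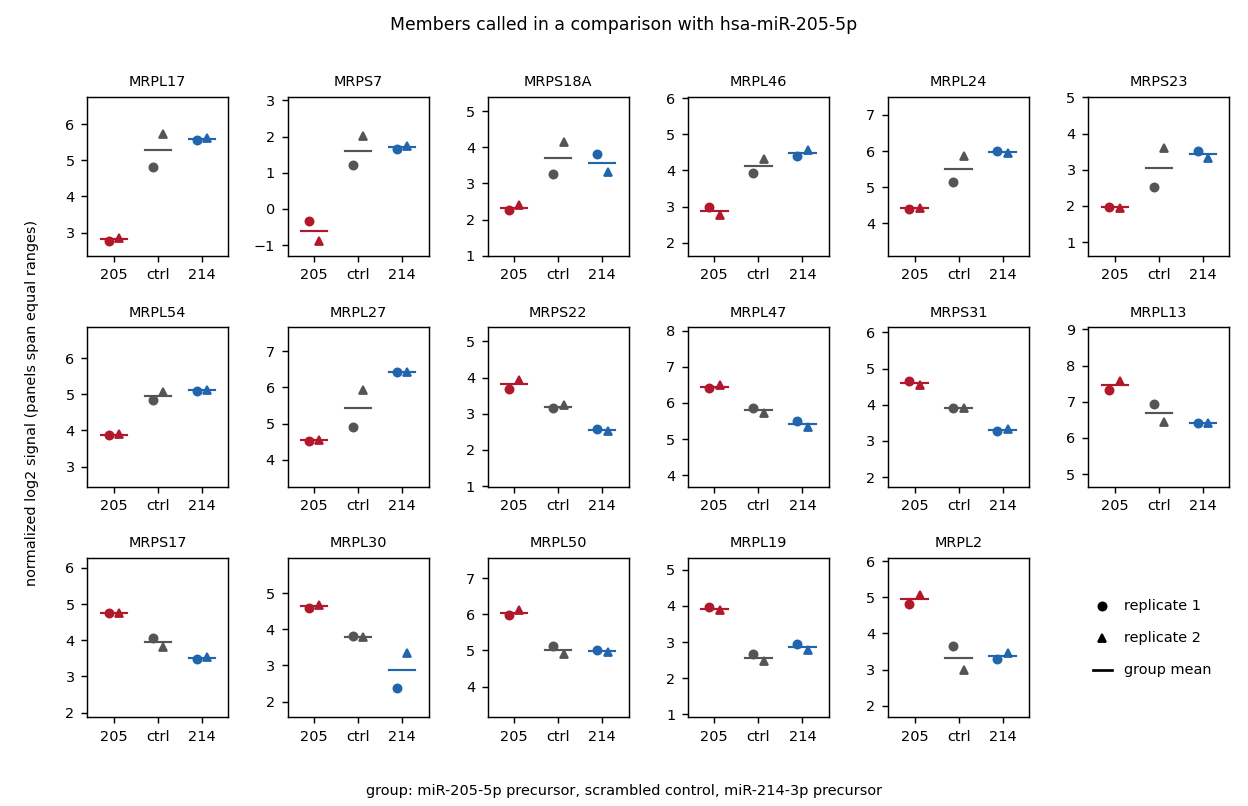
Normalized log2 signal of the 17 members called in a comparison that includes hsa-miR-205-5p, by array. All panels span the same range of log2 units. Circles are replicate 1, triangles replicate 2 and lines the group means. In MRPL17 and MRPS7 the hsa-miR-205-5p arrays sit below both other groups, in MRPL2 and MRPL19 above them, and in MRPL27 and MRPS22 the control lies between the precursors.

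The promoters of the members called against the control are shown because the genes moved in opposite directions while encoding parts of 1 particle. Windows of 300 bases around the start of the gene came from RefSeq (GRCh38.p14) and were found for 69 of the 77 members. They were searched on both strands for GCGCATGC (the core of the NRF1 motif), CCGGAAG (an ETS core, bound by GABPA among others), ATGGCGGC (a YY1 core) and GGGCGG (an SP1 core). YY1 and ETS cores were the commoner ones here relative to other promoters. ATGGCGGC was in 27.5% of the members' windows and in 5.23% of those of 15843 protein-coding genes, and CCGGAAG in 43.5% against 16.5%. For GCGCATGC the shares were 8.70% and 4.89%, and for GGGCGG 60.9% and 64.3%. The windows below belong to the members of largest change in each direction for which one was found, with every match in capitals, and overlapping matches run together. MRPL2 has no window in the table.
MRPL17 promoter window, chr11:6683291-6683590, minus strand: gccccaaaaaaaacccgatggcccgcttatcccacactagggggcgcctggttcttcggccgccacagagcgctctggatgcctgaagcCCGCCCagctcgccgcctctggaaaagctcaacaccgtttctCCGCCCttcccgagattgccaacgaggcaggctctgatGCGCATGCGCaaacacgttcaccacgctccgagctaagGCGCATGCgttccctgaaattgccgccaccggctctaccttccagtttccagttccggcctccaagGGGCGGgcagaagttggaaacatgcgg
MRPS7 promoter window, chr17:75261629-75261928, plus strand: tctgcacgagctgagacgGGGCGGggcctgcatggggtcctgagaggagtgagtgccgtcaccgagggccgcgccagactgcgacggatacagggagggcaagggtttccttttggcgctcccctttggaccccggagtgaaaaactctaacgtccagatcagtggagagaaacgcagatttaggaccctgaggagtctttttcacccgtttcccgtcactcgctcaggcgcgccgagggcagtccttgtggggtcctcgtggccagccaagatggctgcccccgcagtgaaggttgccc
MRPS18A promoter window, chr6:43687742-43688041, minus strand: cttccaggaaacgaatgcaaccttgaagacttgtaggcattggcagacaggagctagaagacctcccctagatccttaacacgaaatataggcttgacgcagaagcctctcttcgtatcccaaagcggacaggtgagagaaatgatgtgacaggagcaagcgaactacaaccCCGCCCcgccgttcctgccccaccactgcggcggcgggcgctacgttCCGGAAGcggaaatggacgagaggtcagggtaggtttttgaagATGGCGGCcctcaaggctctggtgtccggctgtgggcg
MRPL19 promoter window, chr2:75646533-75646832, plus strand: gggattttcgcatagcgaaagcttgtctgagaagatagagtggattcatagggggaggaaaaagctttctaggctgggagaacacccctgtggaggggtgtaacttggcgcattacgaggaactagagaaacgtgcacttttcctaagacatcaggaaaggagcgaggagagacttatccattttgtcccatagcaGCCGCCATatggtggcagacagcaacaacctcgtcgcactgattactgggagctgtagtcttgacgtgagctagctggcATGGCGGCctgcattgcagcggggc
MRPL50 promoter window, chr9:101398569-101398868, minus strand: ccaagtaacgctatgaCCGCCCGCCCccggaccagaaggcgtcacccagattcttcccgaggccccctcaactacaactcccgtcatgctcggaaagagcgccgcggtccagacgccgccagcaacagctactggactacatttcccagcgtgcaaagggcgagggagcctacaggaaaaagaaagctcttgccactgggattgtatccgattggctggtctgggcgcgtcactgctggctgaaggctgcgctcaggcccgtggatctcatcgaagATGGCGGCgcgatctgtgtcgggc
MRPL17 held 3 matches to GCGCATGC, of which 2 overlap, and 3 to GGGCGG. MRPS7 held 1 match to GGGCGG and MRPS18A 1 each to CCGGAAG, ATGGCGGC and GGGCGG. MRPL19 held 2 matches to ATGGCGGC, while MRPL50 held 1 to ATGGCGGC and 2 overlapping ones to GGGCGG. By call, ATGGCGGC was in both windows of genes called higher, in 2 of the 6 of genes called lower and in 14 of the 60 of genes not called. In the same order CCGGAAG was in 0, 2 and 28 windows, GCGCATGC in 0, 1 and 5, and GGGCGG in 1, 4 and 36. A match describes the letters in the window and does not show that a factor is bound.

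Several members share their upstream region with another gene. Counting protein-coding genes on the opposite strand whose start lies within 1000 bases and faces away, 20 of the 69 members (29.0%) had such a neighbour, against 12.3% of the 15843 protein-coding genes. In 16 pairs both genes were tested. MRPL46 and MRPS11, a large and a small subunit gene, start 320 bases apart. The hsa-miR-205-5p arrays were lower for MRPL46, while MRPS11 had a log2 fold change of −0.23 (limma, adjusted p 0.338). MRPS7 starts 273 bases from GGA3, a gene of vesicle sorting, which had a log2 fold change of 0.23 (limma, adjusted p 0.505). MRPL50 starts 233 bases from ZNF189, which stood at 0.48 (limma, adjusted p 0.239). MRPL54, called lower, starts 990 bases from APBA3, which stood at 0.88 (limma, adjusted p 0.0632). In 0 of the 16 pairs were both genes called against the control with either precursor (limma).

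The second comparison sets the hsa-miR-214-3p precursor against the scrambled control, with the same control arrays as the first. With hsa-miR-214-3p, 0 of the 76 members were called lower and 0 higher (limma), beside 2.03% and 1.09% of all genes. With no limit on the fold change the members' counts were again 0 and 0, beside 2.09% and 1.21%. At an unadjusted p under 0.05, 8 members were lower (10.5%) and 1 was higher (1.32%), beside 13.4% and 10.8% of all genes, and none of these members reached 2-fold. The methods' t-test with the 2-fold limit gave 0 and 0 members before adjustment, beside 2.94% and 1.65% of all genes, and after adjustment it called 0 of all 11974 genes. The median of the members was −0.05, that of all genes −0.01, and the middle 50% of the members ran from −0.30 to 0.16.

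The widest differences with hsa-miR-214-3p were in MRPL27 and MRPL30, which lay on opposite sides of the control and are named here after their values were seen. MRPL27, whose bacterial homologue reaches into the site of peptide bond formation, was at 6.42 and 6.41 with hsa-miR-214-3p and at 4.92 and 5.92 in the control. Its log2 fold change was 1.00 (limma, SE 0.34, adjusted p 0.168). MRPL30 was at 2.37 and 3.36 against 3.80 and 3.79, a log2 fold change of −0.94 (limma, SE 0.33, adjusted p 0.185). In both, the gap between replicates of 1 group was close to the difference between the groups. MRPS22 and MRPS31 had tighter replicates and log2 fold changes of −0.65 and −0.61 (limma, adjusted p 0.107 and 0.0980). Of the members followed throughout, MRPL12 had −0.31, MRPL3 −0.32, MRPL44 −0.43, MRPS16 −0.18, MRPS2 0.24 and MRPS34 0.38, with adjusted p from 0.286 to 0.574. These values do not show that the genes were alike in both groups. Leaving out control replicate 2 gave 1 member called higher, MRPL27, and 0 lower (limma), while 4.14% of all genes were lower and 5.47% higher. Leaving out any other single array left 0 of all 11974 genes called in either direction (limma), so the counts of 0 members there say nothing about the members.

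The last comparison sets both precursors against each other and does not use the control arrays for the difference itself. The hsa-miR-214-3p arrays lie in a line of positions on the slide apart from all the other arrays, so position and group cannot be told apart in either comparison that includes them. Here 8 members were called lower with hsa-miR-205-5p than with hsa-miR-214-3p and 9 were called higher (limma), shares of 10.5% and 11.8% beside 11.3% and 9.18% of all genes. With no limit on the fold change, 13 were lower and 20 higher, beside 16.0% and 17.9%. The median of the members was 0.32 and that of all genes 0.12. The values ran from −2.77 to 1.77.

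The 8 lower members were the 6 named against the control, together with MRPL27 and MRPS23. MRPL17 differed by −2.77 (limma, SE 0.31, adjusted p 0.00504) and MRPS7 by −2.32 (SE 0.33, adjusted p 0.00824). For MRPL46, MRPL24, MRPS18A and MRPL54 the log2 fold changes were −1.60, −1.56, −1.24 and −1.22. MRPL27, at 4.53 and 4.54 with hsa-miR-205-5p against 6.42 and 6.41, differed by −1.88 (limma, SE 0.34, adjusted p 0.0138). MRPS23 was at 1.98 and 1.95 against 3.52 and 3.34, a log2 fold change of −1.46 (limma, SE 0.36, adjusted p 0.0324). In both genes the control arrays lay far apart.

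Of the 9 higher members, MRPL2, MRPL19 and MRPL50 were also called against the control, and 6 were called here but not there. MRPS31 and MRPS22 are mitochondrion-specific proteins of the small subunit, and MRPS22 is a gene of inherited respiratory chain deficiency. MRPS31 stood at 4.66 and 4.55 with hsa-miR-205-5p, at 3.91 and 3.90 in the control and at 3.27 and 3.32 with hsa-miR-214-3p. The log2 fold change between the precursors was 1.31 (limma, SE 0.15, adjusted p 0.00521). MRPS22 was at 3.68 and 3.94, 3.16 and 3.23, and 2.57 and 2.53 in the same order of groups, a log2 fold change of 1.26 (limma, SE 0.17, adjusted p 0.00686). In both genes the control arrays lay between the precursors. MRPL30 differed by 1.77 (limma, SE 0.33, adjusted p 0.0159), MRPS17 by 1.23, MRPL47 by 1.04 and MRPL13 by 1.04. These are proteins with bacterial homologues, MRPS17 of the small subunit and the others of the large.

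Below 2-fold, the lower members of lowest adjusted p were MRPL43, MRPL11, MRPS34, MRPL38 and MRPS27, with log2 fold changes from −0.93 to −0.64. The higher ones were MRPL52, MRPL53, MRPS24, MRPS35 and MRPS9, from 0.71 to 0.98. A second, dimmer probe of MRPL52 stood at 0.33 and one of MRPL53 at −0.07 (limma, adjusted p 0.599 and 0.735). Among the members followed throughout, MRPL12, MRPL3, MRPL44, MRPS16 and MRPS2 had log2 fold changes between 0.33 and 0.60 and did not pass the test, with adjusted p from 0.0644 to 0.297 (limma). Leaving out 1 array changed these counts as well. Without hsa-miR-214-3p replicate 1, 1 member was called lower and 0 higher, and without hsa-miR-214-3p replicate 2 the counts were 0 and 1. Without hsa-miR-205-5p replicate 1 they were 4 and 7, and without hsa-miR-205-5p replicate 2 they were 4 and 3. The shares of all genes in these 4 fits were 2.80% and 2.21%, 1.55% and 1.17%, 8.80% and 5.41%, and 7.18% and 5.60%.

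**Figure D3:**
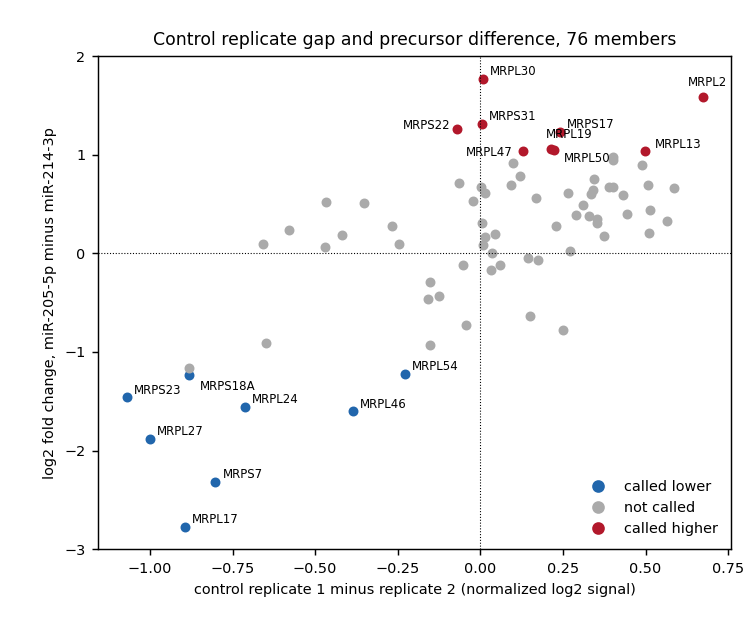
For each of the 76 members, the normalized log2 signal of control replicate 1 minus control replicate 2 (horizontal axis) and the log2 fold change of hsa-miR-205-5p over hsa-miR-214-3p (vertical axis). Blue points were called lower, red points higher. All 8 lower members lie left of 0, and 8 of the 9 higher members lie right of it, MRPS31 and MRPL30 only just.

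The gap between the control arrays ran along the difference between the precursors. In all 8 members called lower between the precursors, control replicate 1 was below control replicate 2, by a median of −0.84. In 8 of the 9 called higher it was above it. The median gap over those 9 was smaller, 0.21, and MRPS31 and MRPL30 stood at only 0.005 and 0.008. Over all 11974 genes control replicate 1 was above replicate 2 by a median of 0.14, and over the 76 members by 0.08. How often the gap had these signs among all called genes was not counted. Across the 76 members, which are not independent replicates, the gap and the difference between the precursors had a Pearson correlation of 0.704 (Spearman 0.574). Across all 11974 genes the values were 0.472 and 0.436. These quantities share no array, although all 6 arrays share 1 slide. Whether the control arrays differed in how they were grown, transfected or processed was not tested.

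**Figure D4:**
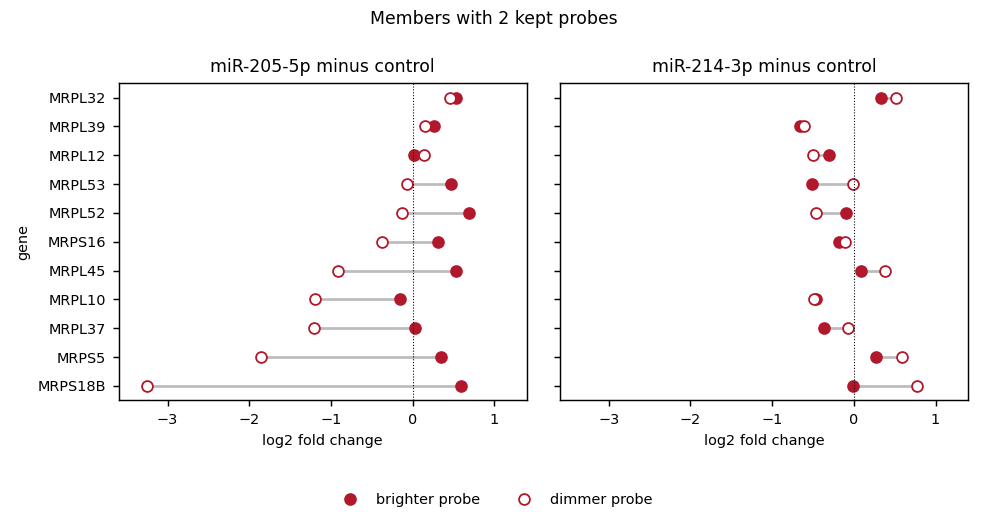
Log2 fold change of the brighter (filled) and dimmer (open) kept probe of the 11 members with 2 kept probes, for hsa-miR-205-5p (left) and hsa-miR-214-3p (right) over control. With hsa-miR-205-5p the dimmer probe lies left of the brighter one in 10 of the 11 genes, and with hsa-miR-214-3p in 3.

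Each gene stands above as its probe of highest mean signal. Of the 77 members 11 had more than 1 kept probe, and no member had probes called in opposite directions. With hsa-miR-205-5p against the control, the dimmer probe had the lower log2 fold change in 10 of these 11 genes, by a median of −0.83. It was called lower in 4 genes in which the brighter probe was not. These genes, named after their values were seen, are MRPS18B, MRPS5, MRPL37 and MRPL10. How often only the dimmer probe is called over all genes with several kept probes was not counted. Whether 4 of 11 is unusual is therefore not known. In MRPS18B, which is specific to mitochondria, the log2 fold change was −3.26 by the dimmer probe and 0.60 by the brighter one. For MRPS5 the values were −1.86 and 0.35, for MRPL37 −1.21 and 0.03, and for MRPL10 −1.19 and −0.16. The dimmer probes of MRPS18B and MRPS5 were well above background on only 1 of the 2 hsa-miR-205-5p arrays, so the size of their change is uncertain. With hsa-miR-214-3p the dimmer probe was the lower one in 3 of the 11 genes. Over all 2681 genes with several kept probes, the next brightest probe was below the brightest in 63.9% with hsa-miR-205-5p, by a median of −0.24. Probes of a gene can read different transcripts, and which of them the probes read was not tested.

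Members of different signal also had different medians. With genes split into 3 sets of near equal size by the mean signal of their probe over all arrays, 61 members fell in the brightest set, where their median log2 fold change with hsa-miR-205-5p was 0.30, beside 0.23 for all genes there. The 13 members in the middle set had a median of −0.25, beside 0.01, and the 2 in the dimmest set 0.50, beside −0.04.

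By role, the 50 large subunit genes included 5 called lower and 3 called higher with hsa-miR-205-5p against the control, with a median log2 fold change of 0.26. The 26 small subunit genes included 1 and 0, with a median of 0.41. Beside 7.98% and 4.78% of all genes, these shares were 10.0% and 6% in the large subunit and 3.85% and 0% in the small. Within the large subunit, 2 of 29 members with a bacterial homologue (6.90%) and 3 of 21 mitochondrion-specific members (14.3%) were called lower. In the comparison of both precursors the medians were 0.28 for the large and 0.60 for the small subunit. Differences between these groups were not tested. The proteins of the same ribosome that carry other names, DAP3, AURKAIP1, CHCHD1, PTCD3 and GADD45GIP1, included none called in any of the 3 comparisons. DAP3, a GTP-binding protein of the small subunit, had log2 fold changes of 0.83 for hsa-miR-205-5p (limma, adjusted p 0.0331), 0.20 with hsa-miR-214-3p (adjusted p 0.543) and 0.62 between the precursors (adjusted p 0.0482).

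**Figure D5:**
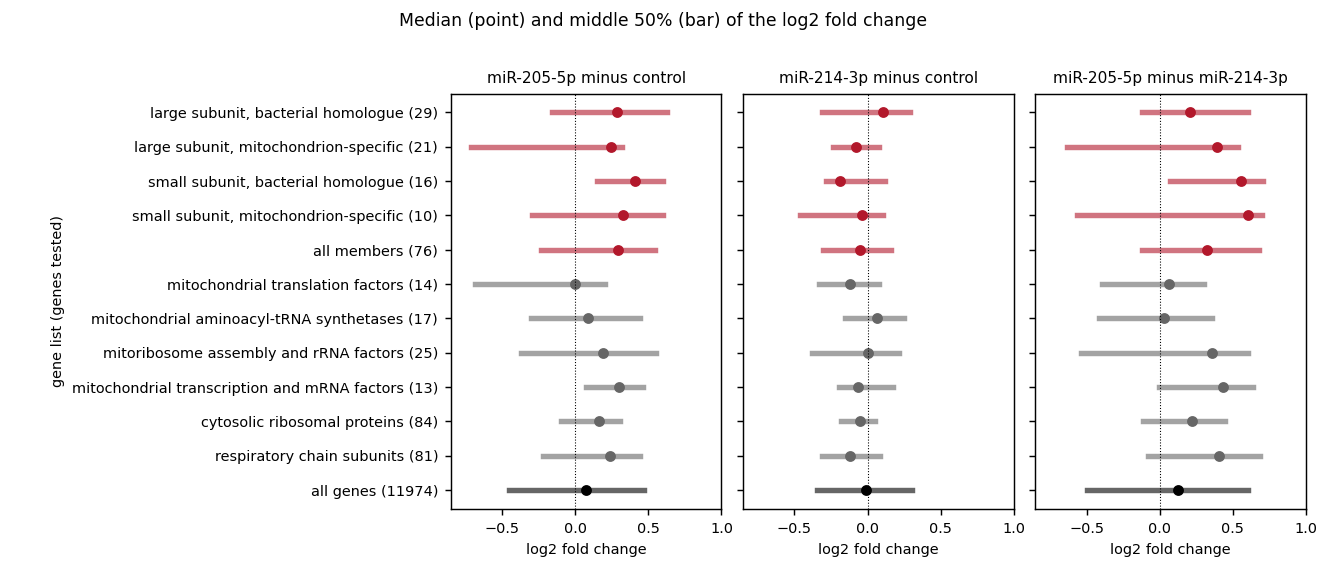
Median (points) and middle 50% (bars) of the log2 fold change in the 3 comparisons for the members by role (red), other lists (grey) and all genes tested (black), with the number of genes tested in brackets. For hsa-miR-205-5p over control the members' median is 0.29, that of respiratory chain subunits 0.24 and that of all genes 0.08, and the bars of all lists overlap.

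The members were set beside other genes of the same machinery. The lists are short, and their counts stand beside 7.98% of all genes called lower and 4.78% called higher with hsa-miR-205-5p. OXA1L, the insertase that receives newly made chains from the ribosome at the inner membrane, was the only one of 14 mitochondrial translation factors called with hsa-miR-205-5p against the control. It changed by a log2 value of −2.15 (limma, SE 0.27, adjusted p 0.0108). Of 17 genes that charge mitochondrial transfer RNAs, 3 were called lower and 0 higher, namely GATB, FARS2 and TARS2, with log2 fold changes of −1.63, −1.36 and −1.12. Of 25 assembly and ribosomal RNA factors, 3 were called lower and 0 higher: MRM2, a methyltransferase of the ribosomal RNA, MTG2, an assembly GTPase, and METTL17, needed for the small subunit. Their log2 fold changes were −1.45, −1.33 and −1.13. In all 7 of these called genes control replicate 1 lay below control replicate 2, by −0.14 in TARS2 to −0.76 in OXA1L. After normexp background correction only OXA1L and METTL17 still reached 2-fold, with MTG2 at −0.99, FARS2 at −0.92, GATB at −0.91, TARS2 at −0.63 and MRM2 at −0.52 (limma, adjusted p 0.0823 for MRM2). In the fit on the 4 arrays compared only OXA1L was still called, and MRM2 also lost its call with the replicate block. Without control replicate 2, FARS2 and METTL17 were under 2-fold, with log2 fold changes of −0.997 and −0.978. TARS2, MRM2 and MTG2 were then near the limit at −1.05, −1.08 and −1.10, with GATB at −1.40 and OXA1L at −1.78. TARS2 and MRM2 also lost their calls there, since they no longer passed the test in this fit with a single control array. None of 13 transcription and messenger RNA factors and none of 8 regulators was called by limma. Passing the test at under 2-fold, POLRMT of the transcription list (−0.76) and the translation factors TACO1 (−0.97) and TUFM (−0.76) were lower. The assembly factors NSUN4 (0.98) and MTG1 (0.64) were higher in the same way. Their adjusted p ran from 0.0144 to 0.0440 (limma). NSUN4 stands here as its brightest probe, and between the precursors its value changed sign when the mean of its probes was taken. With hsa-miR-214-3p, limma called 0 genes of any of these lists in either direction, beside 2.03% lower and 1.09% higher of all genes. At such shares, counts of 0 on lists this short say little.

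Between the precursors, 11.3% of all genes were called lower and 9.18% higher. OXA1L was again lower with hsa-miR-205-5p, by a log2 fold change of −2.71, and so were GATB (−1.89), FARS2 (−1.61) and TARS2 (2.00-fold). Of the 25 assembly factors, RPUSD4, MTG2 and MRM2 were lower (12%), at −1.84, −1.64 and −1.61, and 5 were higher (20%). These were NSUN4 (1.64, but −0.23 with adjusted p 0.294 by the mean of its probes), RBFA (1.33), NOA1 (1.11), DHX30 (1.06) and METTL15, whose value lies between those 2, most of which act on the small subunit or its RNA. AARS2, the alanyl-tRNA synthetase, was higher by 1.03, and the coactivator PPARGC1B was lower by a log2 fold change of −1.43.

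Counts of related families are set beside those of the members. With hsa-miR-205-5p against the control, 7.98% of all genes were called lower and 4.78% higher. Of 84 cytosolic ribosomal protein genes, 6 were called lower (7.14%) and 0 higher, with a median log2 fold change of 0.16. Of 81 respiratory chain subunit genes, 3 were lower (3.7%) and 1 was higher (1.23%), with a median of 0.24. With hsa-miR-214-3p against the control, 1 respiratory chain gene was called higher and none was lower, while the cytosolic genes and the members had 0 calls in either direction (limma). Of all genes, 2.03% were lower and 1.09% higher there. Between the precursors, 6 cytosolic genes were lower (7.14%) and 0 higher, and 7 respiratory chain genes were lower (8.64%) and 3 higher (3.7%). The members had 8 and 9 of 76 (10.5% and 11.8%), and the shares of all genes were 11.3% and 9.18%. The medians there were 0.22 for the cytosolic and 0.40 for the respiratory chain genes, beside 0.32 for the members. Differences between the families were not tested.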

How the data were processed

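RNA of 6 samples was labeled with 1 dye and hybridized to Agilent SurePrint G3 arrays for human genes, all on the same slide. The authors deposited, per array, the Feature Extraction output (version 11.0 in the submitters' processing notes), in which the processed signal is a linear intensity with background removed and no scaling across arrays. Another file the authors deposited holds log2 values of the same arrays and served as an alternative. Its columns each have a median of 3.48, and each correlated at 0.999 or more with the same array's log2 processed signal. Its scale is therefore log2, and its arrays had been brought to a common median by a step that is unknown. The members' medians in the 3 comparisons were 0.17, −0.02 and 0.18 both from it and with quantile normalization. These may therefore not be separate alternatives.

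Groups came from the sample labels. Control and outlier spots (245 to 463 per array) were dropped, and the mean was taken over the remaining spots of each probe. The log2 signal minus the 75th percentile of the array (35.1 to 58.0 as a signal) was tested with limma 3.58.1 in R 4.3.3 (with version 1.17.8 of data.table) on the 6 arrays together, and p was adjusted by Benjamini-Hochberg across the 18468 kept probes of 50599. Residual degrees of freedom were 3, with 2.47 added by moderation. Symbols came from the RefSeq table (GRCh38.p14), which matched 83.3% of the kept probes. The array design uses another genome build, so that table gave names only. The steps were tested on simulated data. Figures were drawn with matplotlib 3.10.9.

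The text names every called member, the 5 members of lowest adjusted p per direction under 2-fold, called genes of the pathway lists, MRPL12, MRPL3, MRPL44, MRPS2, MRPS16, MRPS22, MRPS34 and DAP3, and members with probes of opposite calls. Members and lists were chosen with earlier results of these data known. Alternatives covered background correction, normalization, the filter, the arrays in the fit, the replicate block, the variance model, the test, the fold limit, the probe rule and leaving out each array. Background correction by normexp used the median signal of a spot. Mitochondrially encoded RNAs had no named probe and were not analysed here, nor were target predictions.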

Additional observations from a re-analysis of the deposited data

How the results depend on the processing

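Counts below are of members called lower and higher (limma unless named). Each is followed by the shares of all genes, which moved alongside. With hsa-miR-205-5p against the control the counts were 6 and 3 (7.98% and 4.78%). Scaling to the array median gave 11 and 1 (15.7% and 1.77%), and normexp 6 and 1 (5.17% and 1.11%). The 6 lower members with normexp were not the same ones, since MRPS7 lost its call and MRPL43 gained one. MRPL19 and MRPL50 lost their calls in both of these settings, which left MRPL2 as the higher member. No filter on dim probes, which tests more probes, gave 1 and 0 (0.947% and 0.524%), and the fit on the 4 arrays compared 2 and 1 (3.38% and 1.77%). The methods' t-test gave 4 and 3 before adjustment (5.78% and 3.74%), and after it 0 of the members and 0 of all genes in either direction. With no fold limit 10 were higher (9.80%). Leaving out 1 array gave 0 to 10 lower and 0 to 5 higher. The median log2 fold change of 0.29 became −0.0561 with normexp, −0.10 with median scaling, 0.17 with quantile normalization and with the authors' table, 0.25 with the 75th percentile taken only from probes that passed on every array and 0.20 with the mean of a gene's probes, and ran from 0.22 to 0.31 without 1 array. The median over all genes moved with the scaling too, from 0.08 to −0.31 with median scaling, which leaves the members 0.21 above it by construction. That distance was −0.03 with normexp and −0.09 with no filter on dim probes, where the median of all genes was 0.38 and that of the members 0.30.

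With hsa-miR-214-3p the counts stayed 0 and 0 under every alternative except the fit without control replicate 2, so leaving out 1 array gave 0 lower and 0 to 1 higher. These counts of 0 say little, because 0 of all genes were called too in either direction with no filter, with the 4 arrays compared, with the replicate block, with the adjusted t-test and in the other 5 fits without 1 array. The median of −0.05 became −0.21 with normexp and with median scaling, and ran from −0.16 to −0.0116 without 1 array.

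Between the precursors the counts were 8 and 9 (11.3% and 9.18%). No filter gave 4 and 3 (3.34% and 2.40%), no fold limit 13 and 20 (16.0% and 17.9%), normexp 7 and 5 (5.45% and 3.47%) and median scaling 11 and 5 (15% and 5.33%). With normexp MRPS7 and MRPS18A were no longer called lower, and MRPS34 was. MRPL13, MRPL19, MRPL47 and MRPS22 were then no longer called higher. With median scaling MRPL13, MRPL19, MRPL47 and MRPL50 were no longer called higher. Leaving out 1 array gave 0 to 9 lower and 0 to 9 higher. The median of 0.32 became 0.20 with normexp, 0.18 with quantile normalization and with the authors' table, 0.10 with median scaling and 0.22 with the mean of a gene's probes, and ran from 0.30 to 0.34 without 1 array. NSUN4 turned from a log2 fold change of 1.64 to −0.23 (adjusted p 0.294) with the mean of its probes. The cause of these changes was not tested, beyond those that the construction of the alternative gives.

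The replicate numbers share no known source. Differences between replicates 1 and 2 correlated over probes at 0.00819 between hsa-miR-205-5p and the control, at −0.0514 between hsa-miR-214-3p and the control and at 0.109 between the precursors. With the replicate number as a block, 4 members were lower and 3 higher with hsa-miR-205-5p, 0 and 0 with hsa-miR-214-3p, and 7 and 9 between the precursors, with the medians unmoved at 0.29, −0.05 and 0.32. No block for slide or scan could be run, since the arrays lie on the same slide. Fits without 1 array leave a group with a single sample, and they take its spread to be that of the remaining groups.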

Other observations

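Among the 4 long non-coding RNAs named after members, MRPL20-AS1 was well above background on all 6 arrays. Its normalized log2 signal was −1.31 and −0.88 with hsa-miR-205-5p, 1.06 and 1.01 with hsa-miR-214-3p and 0.87 and 0.98 in the control. The log2 fold change with hsa-miR-205-5p was −2.02 (limma, adjusted p 0.00809). Under hsa-miR-214-3p it was 0.11 (adjusted p 0.786). For MRPL20 itself the values were −0.46 (limma, adjusted p 0.0942) and 0.00. MRPL23-AS1 had 1 kept probe, well above background on 3 arrays, with control replicates at −1.36 and −3.57. MRPS30-DT and MRPS9-AS2 were well above background on 0 arrays. MRPL20-AS1 was chosen for description after its values were seen.

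Head-to-head neighbours could differ more between the precursors than either did from the control. MITD1, a gene of cell abscission that starts 126 bases from MRPL30, was higher with hsa-miR-205-5p than with hsa-miR-214-3p by a log2 fold change of 1.30 (limma, adjusted p 0.00779), beside 1.77 for MRPL30. APBA3, whose start lies 990 bases from that of MRPL54, was higher by 1.21 (limma, adjusted p 0.0206) where MRPL54 was lower by a log2 fold change of −1.22. These were the pairs, of 16 tested, in which both genes were called in that comparison, 1 in the same and 1 in the opposite direction.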
